A study of Homo sapiens with 2 samples.

Results

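S100 genes encode small calcium-binding proteins, and 10 of them were chosen by name for comparison between a highly metastatic gastric cancer line and its parent: S100A2, S100A4, S100A6, S100A8, S100A9, S100A10, S100A11, S100A14, S100A16 and S100P. Members were the probesets (small groups of probes, placed by exon) whose platform annotation gave exactly 1 gene symbol, that symbol being one of the 10. This found 33 probesets of 8 genes, out of 286871 such probesets and 18923 symbols in all. No probeset carried S100A2 or S100A4 as its single symbol, and those genes are not analysed here.

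The data were 1 Affymetrix exon array of MKN45, a human gastric cancer cell line, and 1 of MKN45P, the highly metastatic line derived from it. Both lines were grown untreated in serum-containing medium and harvested with trypsin, and total RNA was depleted of ribosomal RNA before amplification. The labels do not say how MKN45P was derived, or whether it is a single clone. With 1 array per line no difference can be tested, no p-value is given, and the number of arrays limits the precision.

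S100 proteins carry a pair of EF-hand loops, which bind calcium in most members, and mostly act as dimers. Calcium binding in most members exposes a surface for partner proteins. S100 partners inside the cell include annexins and cytoskeletal proteins. Some members are also secreted and act through cell-surface receptors such as RAGE and Toll-like receptor 4. Most of the genes lie together in the epidermal differentiation region of chromosome 1, and S100P lies apart on chromosome 4.

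Values are log2 levels, so a difference of 1 is 2-fold. MKN45 was subtracted from MKN45P at each probeset, and the median of these values stands for the gene. A probeset had signal where its mean level in both arrays was at or above 2.77, the 75th percentile of all 877986 probesets. Below that level values may be compressed, which was not tested. Genes are called measured here if they had 4 or more probesets and their median level reached 1.92, the median of all probesets. The members S100A8, S100A10, S100A14, S100A16 and S100P were measured, 5 genes in all. S100A6 (1 probeset) and S100A11 (2 probesets) had too few probesets, and S100A9 was below the level filter. S100A8 passed only because of its MKN45 level: its median was 2.21 in MKN45 and 1.91 in MKN45P. Levels of different genes come from different probes and are not set against each other.

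None of the 5 measured members differed 2-fold between the lines, but they did not all differ in the same direction. S100A14 and S100P were higher in MKN45P by 0.63 and 0.62, about 1.54-fold and 1.53-fold. S100A16 (-0.75) and S100A10 (-0.32) were lower, and S100A8, which had no probeset with signal, was at -0.33. Among all 13130 measured genes 4.58% were higher in MKN45P by 2-fold or more and 1.20% lower by as much, so with so few members a count of 0 is near that background. The median over the 5 members was -0.32, against 0.03 over all measured genes, whose interquartile range was -0.13 to 0.30. It rested on S100A8: over the 4 members left when a median level of 2.77 was required, it was 0.15, so it has no settled sign.

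The windows before the start of transcription are given for the 4 measured members with signal, 2 from each direction, because S100A14 and S100A16 are direct neighbours on the same strand and differed in opposite directions. Each is 250 bases long, written 5′ to 3′ on the gene's strand, from RefSeq on GRCh38.p14. All 10 chosen genes were found in that table, and the outermost start was used. Capitals mark matches to the motifs searched.
S100A14, chr1:153616326-153616575, minus strand: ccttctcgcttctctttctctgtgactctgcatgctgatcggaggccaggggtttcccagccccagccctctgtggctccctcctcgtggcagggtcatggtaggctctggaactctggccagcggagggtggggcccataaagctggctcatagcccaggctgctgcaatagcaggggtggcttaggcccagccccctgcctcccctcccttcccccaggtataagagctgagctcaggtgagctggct
S100A16, chr1:153613138-153613387, minus strand: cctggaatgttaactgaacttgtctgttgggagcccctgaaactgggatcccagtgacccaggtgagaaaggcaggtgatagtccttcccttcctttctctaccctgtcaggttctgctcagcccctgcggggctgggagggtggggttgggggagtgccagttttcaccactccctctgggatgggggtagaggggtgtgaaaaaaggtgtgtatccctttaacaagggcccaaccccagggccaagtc
S100P, chr4:6693628-6693877, plus strand: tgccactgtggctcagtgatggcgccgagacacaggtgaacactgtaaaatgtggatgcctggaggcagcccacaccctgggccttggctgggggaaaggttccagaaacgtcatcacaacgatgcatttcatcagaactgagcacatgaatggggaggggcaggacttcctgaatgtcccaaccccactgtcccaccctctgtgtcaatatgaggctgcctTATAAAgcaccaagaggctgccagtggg
S100A10, chr1:151993860-151994109, minus strand: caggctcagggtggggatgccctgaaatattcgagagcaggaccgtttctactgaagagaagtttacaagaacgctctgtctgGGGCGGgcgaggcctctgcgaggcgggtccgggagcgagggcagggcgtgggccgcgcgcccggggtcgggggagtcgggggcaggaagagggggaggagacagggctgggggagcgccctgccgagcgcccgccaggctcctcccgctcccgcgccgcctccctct

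The motifs were searched on both strands: the TATA box (TATAAA), the GC box (GGGCGG), the AP-1 site (TGANTCA) and the STAT site (TTCNNNGAA). No matched letters were shared between motifs. S100P held a TATA box from 28 to 23 bases before its start, a motif found in 10.7% of 35116 windows of that length. S100A10 held a GC box from 167 to 162 bases before its start, as found in 42.6% of windows. The share of G and C was 71.2% in the window of S100A10, 63.2% in S100A14, 57.2% in S100A16 and 55.6% in S100P. The windows of S100A14 and S100A16 held none of these exact letter strings, and variants of the strings were not searched. S100A16 had 2 starts listed, of which only the outermost was used. The AP-1 and STAT strings were in none of the 4 windows and each in 6.57% of all windows. A match of letters is a description of the window and does not show binding.

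S100A14, an epithelial S100 protein found at cell borders, was higher in MKN45P at all 6 of its probesets. At its 4 probesets with signal the levels were 5.61 in MKN45 and 6.77 in MKN45P, 4.36 and 5.91, 4.30 and 4.97, and 3.21 and 3.42. The levels were thus apart by 1.16, 1.55, 0.67 and 0.21, and 2 of the 4 probesets passed 2-fold. The remaining 2 probesets were below the signal level and were higher by 0.59 and 0.13. The gene difference of 0.63 had an interquartile range over probesets of 0.31 to 1.04, and it was 0.91 over the probesets with signal. Of the measured genes 11.6% had a larger positive difference than S100A14.

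S100P, a secreted and intracellular S100 protein that is raised in several gastrointestinal cancers, was higher in MKN45P at all 3 of its probesets with signal. The levels there were 8.01 in MKN45 and 9.05 in MKN45P, 5.00 and 5.70, and 4.94 and 5.46. Its differences of 1.04, 0.71 and 0.52 were all in the same direction, and 1 passed 2-fold. The remaining probeset, below the signal level, differed by -0.36 (2.23 in MKN45 and 1.87 in MKN45P). The gene difference was 0.62 (0.30 to 0.79), and 11.9% of measured genes had a larger positive one. S100A6, a protein that binds the ubiquitin-ligase adaptor CACYBP, had a single probeset with 2.70 in MKN45 and 3.10 in MKN45P, a difference of 0.40.

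S100A16, which lies beside S100A14, was lower in MKN45P at all 4 of its probesets with signal. The levels were 9.87 in MKN45 and 9.12 in MKN45P, 9.78 and 9.01, 8.54 and 7.42, and 5.46 and 4.52. The differences of -0.75, -0.77, -1.12 and -0.94 were close to each other, and 1 passed 2-fold. The remaining 3 probesets were below the signal level in the mean of the arrays and differed by -0.29 to 0.12. The gene difference was -0.75 (-0.85 to -0.13), and 2.32% of measured genes had a lower one, the smallest share for any member here. At probesets with signal the differences ran from 0.21 to 1.55 in S100A14 and from -1.12 to -0.75 in S100A16. These genes were set side by side because they differed in opposite directions, so the gap follows from that choice. How often other neighbouring genes differ in this way was not counted.

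S100A10, also called p11, forms a complex with annexin A2 that brings plasminogen and membrane proteins to the cell surface. It was lower in MKN45P at all 4 of its probesets. The levels were 12.67 in MKN45 and 12.46 in MKN45P, 11.18 and 10.74, 9.48 and 8.34, and 1.92 and 1.73, the last below the signal level. The differences at the 3 probesets with signal were -0.21, -0.44 and -1.14, so they spread widely. The smallest of these was at the probeset whose level was nearest to 13.48, the highest value on either array, and the part of that limit in the result was not tested. The gene difference was -0.32 (-0.61 to -0.20), with 9.86% of measured genes lower. S100A11, a partner of annexin A1, had 1 probeset with signal, at 8.28 in MKN45 and 8.01 in MKN45P, and 1 below it, at 1.70 and 1.71.

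S100A8 and S100A9, which pair to form calprotectin, the abundant antimicrobial protein of neutrophils, were near the low end of the scale in both lines. The 4 probesets of S100A8 read 2.61, 1.81, 1.66 and 2.63 in MKN45 and 2.01, 1.91, 1.59 and 1.91 in MKN45P, and none had signal. S100A9 had 1 probeset with signal among 5, at 3.10 in MKN45 and 2.58 in MKN45P, and its other probesets ran from 1.65 to 2.04. The gene differences were -0.33 (-0.63 to -0.02) for S100A8 and -0.01 (-0.14 to 0.04) for S100A9. They lie where values may be compressed, and they give no order between the lines. Of 9 measured markers of myeloid cells, which make both proteins, none had a median level with signal. None of them passed 2-fold, where 5.78% of all measured genes did in either direction. Over their few probesets with signal, 1 of these markers was past 2-fold with MKN45P higher and 1 with MKN45P lower.

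**Figure D1:**
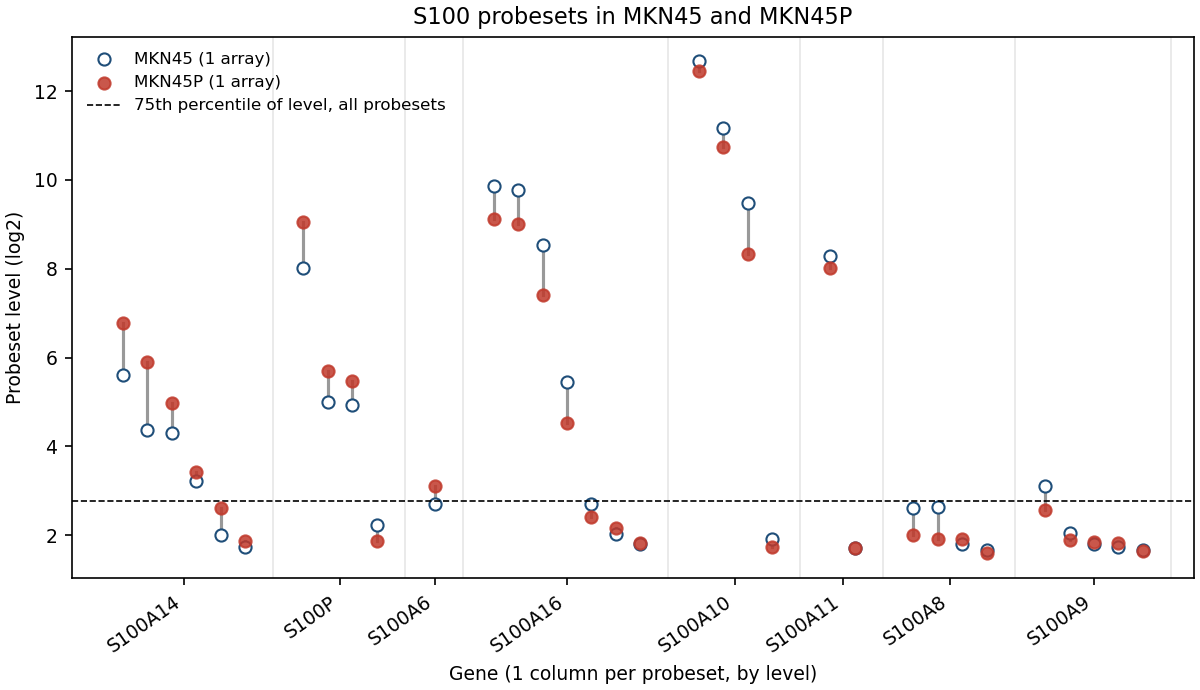
Log2 level of each of the 33 S100 probesets (1 column each, ordered by level within a gene) in MKN45 (open circles) and MKN45P (filled circles), 1 array each, with a dashed line at 2.77, the 75th percentile of all probesets. Where the mean of both circles is above that line, the filled circle lies over the open one for S100A14, S100P and S100A6 and under it for S100A16, S100A10, S100A11 and S100A9.

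Taken probeset by probeset, 17 of the 33 had signal, and 3 of these were past 2-fold with MKN45P higher and 2 with MKN45P lower. Among all 139760 named probesets with signal the shares were 17.0% higher and 7.93% lower, so the members' counts are near the background. Of the 17, 8 had a difference above 0, as did 54.9% of all named probesets with signal. The other 16 member probesets differed by -0.72 to 0.59, and none passed 2-fold. Probesets of a gene share its RNA and are not replicates of a line.

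**Figure D2:**
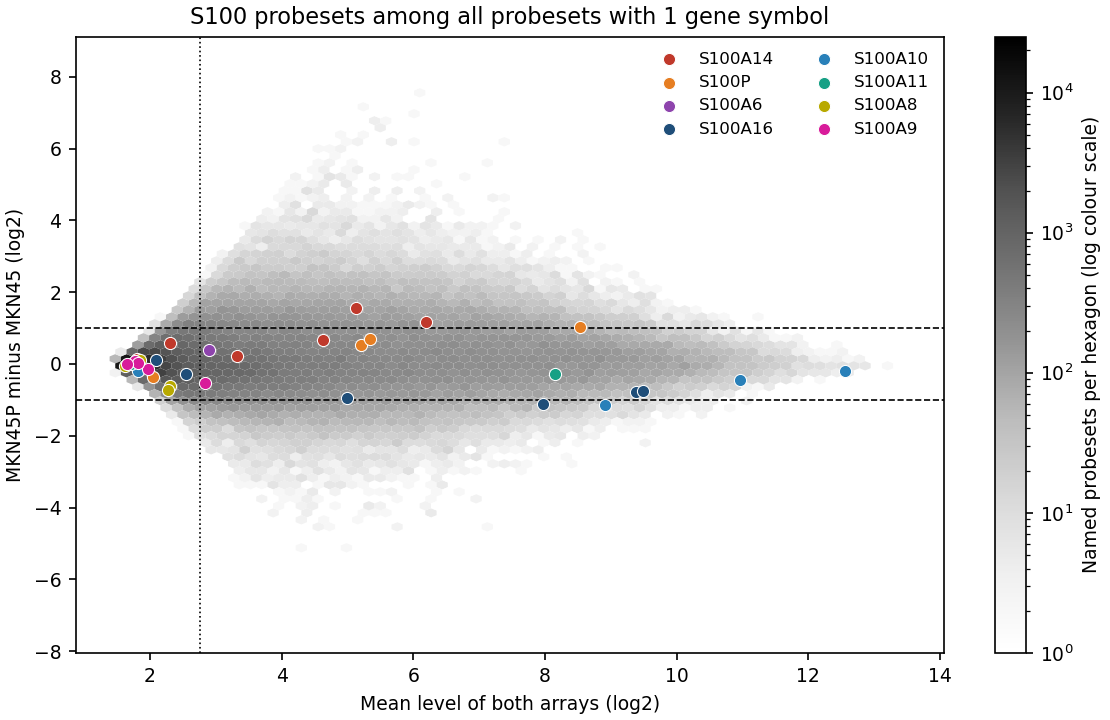
Difference MKN45P minus MKN45 (log2) against the mean level of both arrays (log2) for all 286871 probesets with 1 gene symbol (grey hexagons, darker for more probesets) and the 33 S100 probesets (coloured by gene), with dashed lines at 2-fold and a dotted line at 2.77. Of the S100 probesets 5 lie past a dashed line, 3 above and 2 below, and all of them are inside the grey cloud.

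The other S100 family genes were mostly near the low end. Of 11 listed, 10 had a probeset and 2 were measured, S100A13 (0.13), which takes part in release of growth factors lacking a signal peptide, and S100Z (0.04). The remaining 8, among them S100A12 (-0.18), S100A7 (-0.09) and S100B (-0.02), were below the filters. The fused-type genes, in which S100 domains join long repeats of the skin barrier, gave 3 measured genes of 7, all within 2-fold, with CRNN at -0.27 and TCHH at -0.05. The list of cornified envelope and keratinocyte genes, some of which share the chromosome 1 region, had 9 measured genes of 26. None of these 9 was among the genes from S100A10 to S100A1, and all were within 2-fold. CNFN was at -0.40, ECM1 at 0.26 and the list's median at -0.05. Of all measured genes 5.78% passed 2-fold in either direction, so lists this short with none past it are near that background.

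Along chromosome 1, in RefSeq gene order, the 63 protein-coding genes from S100A10 to S100A1 held 15 measured genes. None of the 15 passed 2-fold, a count near the 5.78% of all measured genes that passed it in either direction. Their median difference was -0.16, against 0.03 over all measured genes. That median was the value of the gene KPRP, whose median level over both arrays, 2.32, was below the signal level. Of the 15, only S100A10, S100A16, S100A14 and S100A13 had such a median level with signal, against 8081 of all 13130 measured genes. Values below the signal level may be compressed, so the median and the count past 2-fold give no shift of the region. Past 2-fold but with only 2 probesets each, and so not measured, were the cornified envelope genes LCE3B (4.89 in MKN45 and 3.11 in MKN45P, -1.78) and SPRR1A (4.18 and 2.43, -1.75), named after their values were seen. The nearest measured gene outside on the S100A10 side was THEM4 (-0.07), an acyl-CoA thioesterase, and on the S100A1 side CHTOP (-0.38), an RNA export factor. S100A13, on the far side of S100A14 from S100A16, was at 2.70 in MKN45 and 2.97 in MKN45P, with MKN45 below the signal level.

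In a list that joined the annexin family to cytosolic targets of S100 proteins, some genes passed 2-fold in each direction. Whether each listed product binds an S100 protein was not checked. Of 28 listed annexins and cytosolic targets 27 were measured, 5 passed 2-fold with MKN45P higher and 2 with MKN45P lower, against 4.58% and 1.20% of all measured genes. The list's median was 0.16, against 0.03 over all measured genes. The list was compiled with earlier results of these arrays known, and it includes genes already seen to differ, so its counts are a description.

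The higher genes were mostly annexins, a family in which most members, though not all, bind membranes in a calcium-dependent way. ANXA1, the partner of S100A11, had a median level of 5.29 in MKN45 against 7.74 in MKN45P and a difference of 1.89 (1.26 to 2.21), higher at all 15 probesets. ANXA10 was higher by 2.17 (2.32 in MKN45 and 4.39 in MKN45P), ANXA7 by 1.62 (5.81 and 7.51) and ANXA9 by 1.35 (2.58 and 3.96). The parental levels of ANXA10 and ANXA9 were below the signal level, where values may be compressed, which was not tested. CTTN, the actin regulator cortactin, was just past 2-fold at 1.004, with an interquartile range of 0.54 to 1.45.

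The partners of S100A10 did not differ in the direction of the annexins above. ANXA2, with which S100A10 forms its complex, had a median level of 4.61 in MKN45 against 4.21 in MKN45P and a difference of -0.31 (-0.40 to 0.01), beside -0.32 for S100A10. From the difference between median levels the values were -0.40 for ANXA2 and -0.79 for S100A10. AHNAK, a giant scaffold protein that binds that complex, had levels of 8.03 and 6.51 and a difference of -1.35 (-1.52 to -0.98), lower at 31 of 32 probesets. The S100A10, ANXA2 and AHNAK values were therefore all lower in MKN45P, but only that of AHNAK passed 2-fold. Whether these genes move together cannot be read from 1 array per line.

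The partners of S100P differed in both directions. IQGAP1, a cytoskeletal scaffold that S100P binds, had a median level of 8.33 in MKN45 against 7.001 in MKN45P and a difference of -1.23 (-1.48 to -0.75), lower at 45 of 46 probesets. S100PBP, named for its binding to S100P, was at 0.96 (0.48 to 1.62) and passed 2-fold in some other settings, up to 1.22 over its probesets with signal. The membrane-actin linker EZR, which S100P can activate, was at 0.25 (0.08 to 0.79). CACYBP, which binds S100A6 and S100P, had a gene difference of 0.07. Its median levels were below the signal level, at 2.44 in MKN45 and 2.36 in MKN45P. MYH9, the non-muscle myosin heavy chain bound by S100A4, was at 0.34.

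**Figure D3:**
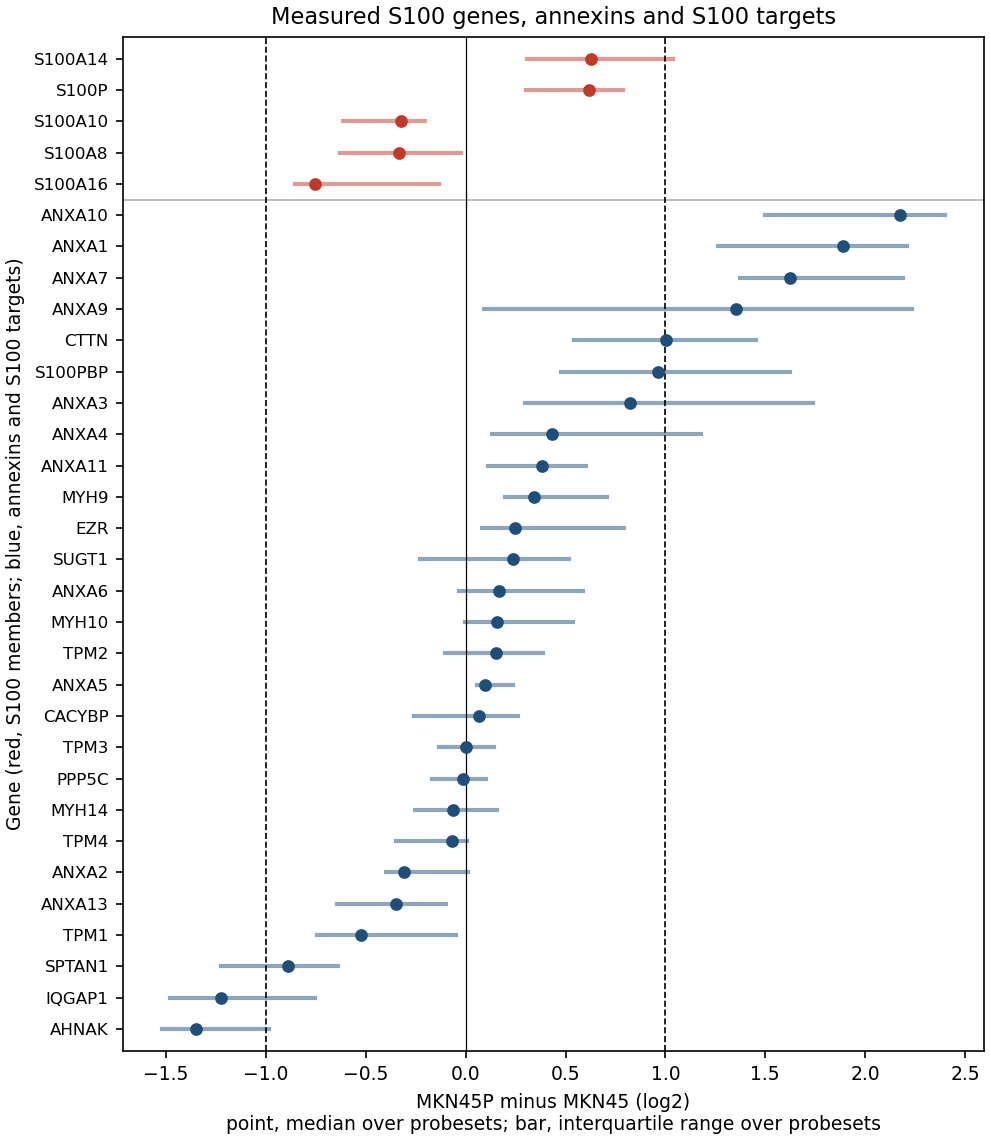
Difference MKN45P minus MKN45 (log2) of the 5 measured S100 genes (red, top) and of 27 annexins and cytosolic S100 targets (blue), with points for the median and bars for the interquartile range over probesets of 1 array per line, and dashed lines at 2-fold. All red points lie between the dashed lines, while 5 blue points lie past the upper line and 2 past the lower one.

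None of the measured receptors and surface partners of secreted S100 proteins passed 2-fold. With so few genes this is near the 5.78% of all measured genes that passed it in either direction. Of 16 listed, 9 were measured, with a median of 0.05. The largest differences were those of SCARB1, a lipoprotein receptor, at 0.41, and MYD88, the adaptor of Toll-like receptors, at -0.34. AGER, which encodes RAGE, was at 2.67 in MKN45 and 2.83 in MKN45P, and TLR4 at 2.69 and 2.20, with the levels of AGER in MKN45 and of TLR4 in both lines below the signal level. BSG, a surface protein that binds S100A9, was at 8.61 and 9.04, a difference of 0.16.

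Other EF-hand genes and epithelial alarm genes were described for comparison. Of 28 measured EF-hand genes outside the family, 1 passed 2-fold, with MKN45P higher, where 4.58% of all measured genes did, and the median was 0.06. The gene past 2-fold was MCFD2, a cofactor of cargo export from the endoplasmic reticulum, at 1.83 (0.80 to 2.35). Of 12 measured alarm genes, the list to which calprotectin is often joined in inflamed epithelium, LCN2 alone passed 2-fold, at 6.22 (0.17 to 6.67), from 2.43 in MKN45 to 8.59 in MKN45P. The chemokine genes CXCL3 (-0.30), CXCL2 (-0.28) and CXCL5 (-0.22) were within 2-fold, and the list's median was -0.11. CXCL2 and CXCL5 had median levels below the signal level, and only 3 of the 12 genes had one with signal. By gene difference 3 of the 12 were above 0. CXCL1, with 3 probesets and so not measured, was at 4.20 in MKN45 and 2.09 in MKN45P (-0.83), named after its values were seen. With 1 of 12 genes past 2-fold, this list is too short to set against the 4.58%.

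The labelled cell type was checked against markers. The epithelial genes CDH1 (10.26 in MKN45 and 10.74 in MKN45P), EPCAM (6.39 and 7.43), KRT18 (5.63 and 5.78) and CEACAM5 (10.01 and 9.68) had signal in both lines. They were picked from the epithelial and gastric list, in which 10 of 14 measured genes had a median level with signal. The measured genes MUC5AC (2.41 and 2.14), MUC6 (2.64 and 2.31), CDX1 (2.63 and 2.63) and CLDN18 were below the signal level in both lines. KRT20, below the filters, was at 1.89 and 1.93. By gene difference 2 of the 14 were above 0 (EPCAM 0.83 and CDH1 0.55), and KRT18 was at -0.08. None passed 2-fold, and the median was -0.21, with VIL1 at -0.87. Among secretory genes TFF1 (4.92 in MKN45 and 3.71 in MKN45P, -0.50) had signal in both lines and TFF3 (3.95 and 2.74, -0.42) in MKN45, and GKN1, GKN2 and TFF2 had median levels below 1.93 in both. The keratin gene KRT19, with 2 probesets, was at 6.36 and 5.60. Median levels over the marker lists ran, gene by gene, between 1.66 and 2.69 in MKN45 and between 1.65 and 2.47 in MKN45P for 13 myeloid markers. For 11 fibroblast markers they ran from 1.66 to 3.35 and from 1.65 to 4.52, the highest being FBLN1 (1.10 higher in MKN45P). For 5 melanocyte and Schwann cell markers they ran from 1.72 to 2.40 and from 1.69 to 2.42. The 9 keratinocyte markers lay between 1.74 and 7.41 in MKN45 and between 1.86 and 8.47 in MKN45P, the highest being KRT5, with a difference of 1.06. The 8 mesothelial markers lay between 1.69 and 8.70 and between 1.67 and 9.49, the highest being CALB2 (0.48), and UPK3B differed by -1.06. Of the 6 measured mesothelial markers 5 had a median level with signal, so this list was not near the low end. Besides CALB2 and KRT5, which is on this list too, they were UPK3B (6.26 in MKN45 and 4.50 in MKN45P), WT1 (5.32 and 4.18) and MSLN (3.996 and 4.50). How far the markers set these lines apart from mesothelial cells was not tested, nor was the part of any marker list in the S100 values.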

How the data were processed

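Per the labels' protocols, total RNA of 1 MKN45 and 1 MKN45P culture was depleted of ribosomal RNA, amplified with a whole-transcript kit, fragmented and biotin labelled. The deposited values are log2 levels, 1 per probeset and array, with the log2 scale read from their range of 1.42 to 13.48. Per the submitters' processing notes, Partek and hg18 were used; their roles, and how background, probe summary and normalization were handled, were not stated in these sources.

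Values were used as deposited. GEO's platform annotation supplied symbols: 286871 probesets had 1 symbol, 3137 had several and 587978 were unnamed. None of the several-symbol probesets named a member. List symbols were updated through RefSeq (16000 of 18923 current, 2815 through an older name). The members, lists and motifs were chosen with earlier results of these data known. The named genes were all members, list genes past 2-fold or the 2 largest differences where none was, and the nearest measured neighbours on chromosome 1; partners and markers with smaller differences were named for their role after their values were seen. Alternatives were 3 scalings, 3 gene summaries and 2 filters. The gene step was tested on simulated data. Python 3.11.15, pandas 2.3.3, numpy 2.4.6 and statsmodels 0.14.6 were used.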

Additional observations from a re-analysis of the deposited data

How the results depend on the processing

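No S100 member passed 2-fold in either direction under any of the 8 alternatives. S100A14 ran from 0.44 to 0.91, S100P from 0.48 to 0.71, S100A16 from -0.94 to -0.53, S100A10 from -0.79 to -0.30, S100A11 from -0.27 to -0.11 and S100A6 from 0.40 to 0.53, and each kept its sign. S100A8 kept its sign as well (-0.33 to -0.28), though it had no value from probesets with signal only, and S100A9 took either sign (-0.53 to 0.04). The median of the measured members ran from -0.32 to 0.15, and that of all measured genes from -0.00095 to 0.12.

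Counts other than those of marker lists moved by over 1.5 times in these cases. From the difference between median levels, 1263 genes were 2-fold higher and 305 lower, 8 annexins and targets were higher, and 3 EF-hand genes were higher and 1 lower. From the mean over probesets, 3 EF-hand genes were higher. From probesets with signal only, 1361 genes were higher and 465 lower, 5 EF-hand genes were higher and 1 lower, 2 alarm genes were lower, and 1 cornified envelope gene was higher and 1 lower. Without the filter, 2 alarm genes were higher, SLPI (1.76) being added, and 1 cornified envelope gene was lower, SPRR1A (-1.75). The cause was not tested, except that the last setting tests more genes. Marker counts moved too: from median levels 1 epithelial marker was higher and 3 lower, and 2 mesothelial markers lower; with loess no keratinocyte or mesothelial marker passed 2-fold; and over probesets with signal 1 myeloid marker passed 2-fold each way, 2 keratinocyte markers were higher and 1 lower, and 1 melanocyte marker was higher. CTTN ran from 0.88 to 1.34 and S100PBP from 0.96 to 1.22, so each was on either side of 2-fold. ANXA9 (1.19 to 2.09), MCFD2 (1.78 to 2.999) and LCN2 (4.09 to 6.36) stayed past it, and MYD88 (-0.96 to -0.27) and EZR (0.11 to 0.83) within it. No paired analysis was possible because each line has 1 array, and for the same reason no array could be left out. Of the 33 member probesets 16 had no signal, including all of S100A8, which limits what can be read from their levels.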
